A study of Mus musculus with 6 samples.

Results

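Cgnl1 encodes paracingulin, a coiled-coil protein of the cytoplasmic face of epithelial junctions, and the genes described here are Cgnl1 and a set of tight junction genes: its paralog Cgn, the scaffold genes Tjp1 and Tjp3, the claudin genes Cldn1, Cldn4 and Cldn7, and the membrane protein genes Ocln and F11r. The genes were picked by symbol, and 8 of the 9 symbols were found among the 19618 genes of the count table. Cldn7 is not analysed here. The set was chosen with earlier results of the same comparison in view, knockout against control, so the levels below are a description of that comparison, with no test of it.

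RNA was sequenced from tail keratinocytes of mice aged 4 months, with 3 libraries labelled knockout and 3 labelled control. The knockout mice carried K14cre together with Gpr161Flox in the homozygous state. K14cre expresses Cre recombinase from the keratin 14 promoter, which is active in basal keratinocytes. Which cells of the preparation lost Gpr161 is not shown by these counts. The controls carried no K14cre; the mouse titled Control_1 was Gpr161Flox-Homozygous and the other controls Gpr161Flox-Heterozygous, so the groups differ in Cre as well as in Gpr161. The column names give the genotype group and a tag but no sample title, so libraries are called by tag: the knockout libraries are DE679, DE685 and DE688, and the control libraries DE680, DE684 and DE689. The tags run in 3 consecutive pairs of a knockout and a control library (DE679 with DE680, DE685 with DE684, DE688 with DE689); what the libraries of a pair share is not given in the sources used here. Whether a library came from 1 mouse or from pooled mice is not given in the sources used here, so p-values measure the spread between these libraries only.

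Tight junctions seal the space between neighbouring epithelial cells. Claudins and occludin form strands in the membrane, the zonula occludens proteins encoded by the Tjp genes tie those strands to actin, and cingulin and paracingulin bind that plaque and recruit regulators of small GTPases. In mouse epidermis, functional tight junctions lie in the granular layer, while several of their proteins are also made in deeper layers, and mice without Cldn1 lose water through the skin. Gpr161 is a receptor in the primary cilium that restrains Hedgehog signalling.

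Total estimated counts were 17157864 to 25344399 per library. Levels are given as CPM, which are counts scaled to a common library total with TMM (trimmed mean of M values) factors. Across 15422 genes tested, 247 (1.60%) passed the threshold used throughout for a call, a Benjamini-Hochberg adjusted p below 0.05 from edgeR's quasi-likelihood fit. The deleted gene itself did not separate the groups in whole-gene counts, with a Gpr161 log2 fold change of -0.13 (SE 0.11, adjusted p 0.553 in edgeR), so these counts do not check the labels. Gli1, a direct target of Hedgehog signalling, lay between 66.7 and 74.5 CPM in knockout libraries and between 8.25 and 9.96 CPM in control ones (log2 fold change 2.93, SE 0.10; adjusted p 1.77e-05 in edgeR).

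The sequences just before the start sites of Cgnl1 and Cldn1 are shown because these were the 2 members whose knockout libraries all lay above every control library. Each is the 250 bases before the RefSeq start (GRCm38.p6), printed 5′ to 3′ on the gene's own strand. Capitals mark matches to the GC box letters GGGCGG on either strand. The Cgnl1 window is chr9:71771603-71771852 on the minus strand, and the Cldn1 window is chr16:26371840-26372089 on the minus strand.
Cgnl1: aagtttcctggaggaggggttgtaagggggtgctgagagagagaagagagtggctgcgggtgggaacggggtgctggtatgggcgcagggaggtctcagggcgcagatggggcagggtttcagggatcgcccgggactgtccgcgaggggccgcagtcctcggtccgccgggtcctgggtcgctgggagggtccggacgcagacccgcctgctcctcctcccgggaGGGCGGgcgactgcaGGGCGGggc
Cldn1: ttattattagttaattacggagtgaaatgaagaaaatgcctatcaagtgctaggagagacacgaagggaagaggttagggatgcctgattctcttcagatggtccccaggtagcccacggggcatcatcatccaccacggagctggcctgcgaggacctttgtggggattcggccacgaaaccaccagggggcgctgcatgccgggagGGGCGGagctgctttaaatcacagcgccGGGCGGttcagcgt

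Windows of this length were found for all 9 listed genes, 12 windows in all since some genes have several RefSeq starts. Motifs were searched on both strands. The GLI letters GACCACCCA, the sequence bound by the Hedgehog transcription factors, matched 0 of the 12 windows, and they matched 74 of 32851 windows of all genes (0.225%). The grainyhead letters AACCGGTT, for a family of epidermal barrier transcription factors, also matched 0 of 12 (0.116% of all windows). AP-1 letters, TGANTCA, matched 2 of 12 windows, those of Cldn4 and F11r (6.75% of all). GC boxes were present in 9 of 12 (32.7% of all). Each motif match is a description of these letters in this window, and no overlap between motifs was seen in the 2 printed windows, where only GC boxes matched.

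Cgnl1 was 2.50-fold higher in the knockout libraries than in the controls, while the groups overlapped for its paralog Cgn. Cgnl1 (chromosome 9, 71626509 to 71771602, minus strand, GRCm38) reached 74.1 CPM in library DE679, 83.2 CPM in DE685 and 91.4 CPM in DE688. Its control values were 30.4 CPM (DE680), 34.8 CPM (DE684) and 34.4 CPM (DE689). Every knockout library lay above every control library, with a wide gap between the groups and less spread in the control. The means were 82.9 ± 8.63 CPM and 33.2 ± 2.45 CPM (SD over n = 3 libraries each), a log2 fold change of 1.32 (SE 0.10). Cgnl1 had 685 to 2349 counts per library, and its exons overlap no other annotated gene in GENCODE M21.

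Cgn (chromosome 3, 94760069 to 94786515, minus strand), which encodes cingulin, stood at 39.0 CPM (DE679), 39.1 CPM (DE685) and 46.7 CPM (DE688). Its control values were 49.2 CPM (DE680), 41.7 CPM (DE684) and 54.7 CPM (DE689). The groups overlapped, since DE688 lay above DE684. Knockout and control means were 41.6 ± 4.42 and 48.5 ± 6.54 CPM (SD over n = 3 libraries each), a log2 fold change of -0.22 (SE 0.12).

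**Figure D1:**
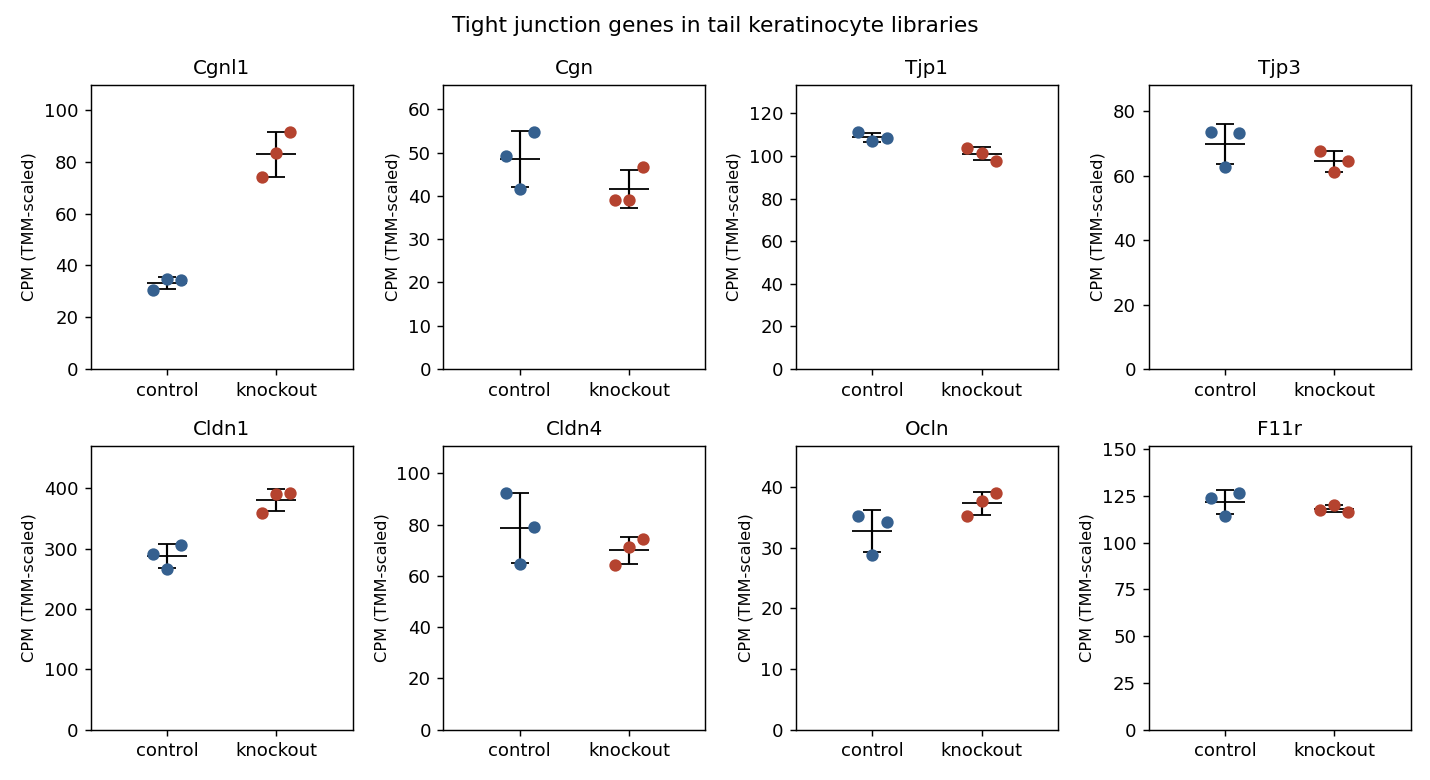
Level of each member in CPM (TMM-scaled, vertical axis from 0, own scale per gene) in the 3 control and 3 knockout libraries; points are libraries, the horizontal mark is the mean and the bar is the SD. Cgnl1 lies at 74.1 to 91.4 CPM in the knockout and 30.4 to 34.8 in the control, and Cldn1 also separates, while Cgn, Tjp3, Cldn4, Ocln and F11r overlap.

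Because both genes belong to one family, their ratio within a library shows the balance between paracingulin and cingulin transcripts. Per kilobase of exon, the ratio of Cgnl1 to Cgn was 1.46 (DE679), 1.63 (DE685) and 1.50 (DE688) in the knockout libraries. The control ratios were 0.475 (DE680), 0.642 (DE684) and 0.483 (DE689). By this exon length, which counts every annotated exon, Cgnl1 was thus the higher of the pair in all 3 knockout libraries and the lower in all 3 controls. The mean ratio was 1.53 ± 0.0908 in the knockout and 0.533 ± 0.0942 in the control (SD over n = 3 libraries each).

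The cytoplasmic scaffolds differed little. Tjp1 (chromosome 7, 65296165 to 65527781, minus strand), a multi-domain scaffold that links claudins and occludin to actin, had 104, 102 and 97.7 CPM in DE679, DE685 and DE688. The controls DE680, DE684 and DE689 had 111, 107 and 108 CPM. Every knockout library lay below every control library, but the gap was small. The means were 101 ± 3.11 and 109 ± 2.07 CPM (SD over n = 3 libraries each), a log2 fold change of -0.11 (SE 0.05). Tjp3 (chromosome 10, 81273207 to 81291581, minus strand), a relative of Tjp1, had 67.6, 61.3 and 64.5 CPM in the knockout libraries in the same order and 73.5, 62.9 and 73.2 CPM in the controls. The Tjp3 groups overlapped, with a log2 fold change of -0.12 (SE 0.08), and 40 bases of its exons overlap Apba3 on the opposite strand. The ratio of Tjp1 to Tjp3 per kilobase was 0.747 ± 0.0367 in the knockout and 0.744 ± 0.0576 in the control (SD over n = 3 libraries each).

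Among the strand-forming claudins, Cldn1 was higher in the knockout libraries and Cldn4 overlapped. Cldn1 (chromosome 16, 26356642 to 26371841, minus strand), the claudin needed for the epidermal water barrier, had 359, 390 and 392 CPM in DE679, DE685 and DE688. The controls DE680, DE684 and DE689 had 291, 266 and 305 CPM. All knockout libraries lay above all controls, by a smaller fold than for Cgnl1. The means were 380 ± 18.7 and 287 ± 19.9 CPM (SD over n = 3 libraries each), a log2 fold change of 0.40 (SE 0.07), or 1.32-fold. Cldn4 (chromosome 5, 134945119 to 134946934, minus strand), a claudin of differentiated epithelial cells, had 64.1, 71.3 and 74.4 CPM in the knockout libraries and 92.3, 64.7 and 79.0 CPM in the controls. Its controls spread more widely than its knockouts and enclosed most of them, with a log2 fold change of -0.17 (SE 0.13). The ratio of Cldn1 to Cldn4 per kilobase was 2.10, 2.05 and 1.98 in the knockout libraries and 1.183, 1.54 and 1.45 in the controls, with no overlap.

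**Figure D2:**
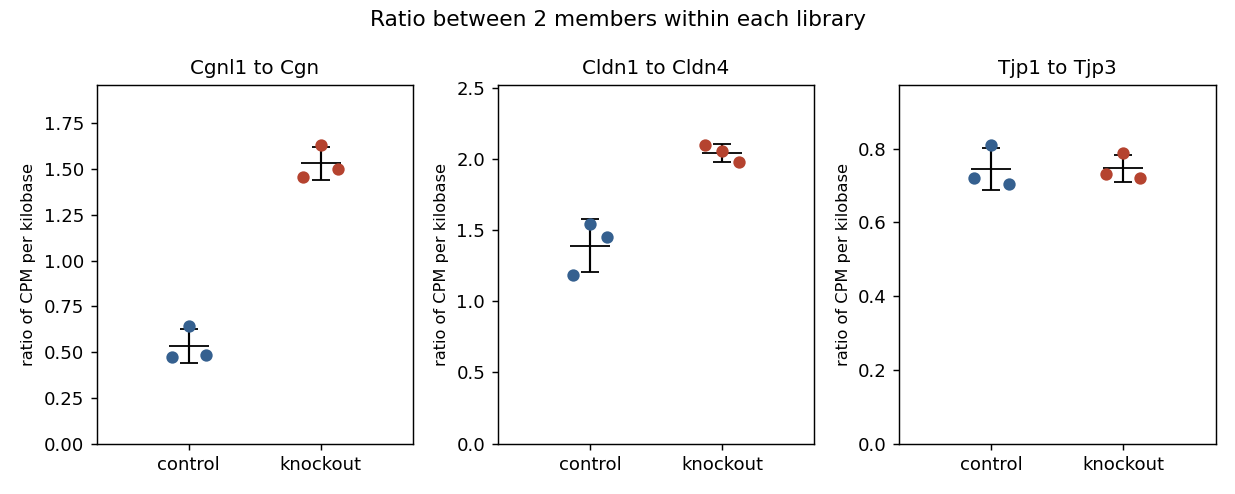
Ratio of 2 members within each library, each as CPM per kilobase of exon (vertical axes from 0); points are libraries, marks are means and bars are SD. Cgnl1 to Cgn is 1.46 to 1.63 in the knockout and 0.475 to 0.642 in the control, Cldn1 to Cldn4 also separates, and Tjp1 to Tjp3 overlaps.

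The other membrane proteins overlapped between the groups. Ocln (chromosome 13, 100496507 to 100552718, minus strand), which encodes occludin, had 35.2, 37.7 and 39.0 CPM in DE679, DE685 and DE688. The controls DE680, DE684 and DE689 had 35.3, 28.9 and 34.3 CPM. The lowest knockout library and the highest control library were nearly equal, and the log2 fold change was 0.18 (SE 0.09). F11r (chromosome 1, 171437535 to 171464603, plus strand), the junctional adhesion molecule A, had 118, 120 and 116 CPM in the knockout libraries and 124, 114 and 127 CPM in the controls. It had a log2 fold change of -0.04 (SE 0.06), with the knockout libraries inside the range of the controls.

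In the fit of all genes, 2 of the 8 members, Cgnl1 and Cldn1, had an adjusted p under 0.05, and both were higher in the knockout, a call made for 1.24% of all genes; 0 of 8 were called lower, a call made for 0.357%. Of the 8, 3 did not overlap between the groups in either direction (Cgnl1, Cldn1 and Tjp1), against 25.6% of all genes tested. Since the set was proposed from this comparison, nothing is read from these counts. Cgnl1 was past the threshold in all 14 alternative fits. Cldn1 was past it in the 8 alternatives with all libraries and in 0 of the 6 fits without 1 library, which each hold fewer libraries. Within the 3 pairs of consecutive tags, Cgnl1 and Cldn1 were higher in the knockout library in 3 of 3 pairs, and Tjp1 was lower in 3 of 3. Since the groups did not overlap for these genes, any pairing gives that count, and it adds nothing. Cgn and Tjp3, whose groups overlapped, were also lower in 3 of 3. In the edgeR fit with these pairs as a block the adjusted p was 0.146 for Cgn, 0.298 for Tjp1 and 0.305 for Tjp3.

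Summed over the 8 members, expression was 860.2 to 922 CPM in the knockout libraries and 720.5 to 816 CPM in the controls. The 6 members other than Cgnl1 and Cldn1 summed to 428 to 439 CPM in the knockout and 420 to 485 CPM in the control, so their groups overlapped. Their log2 fold changes ran from -0.22 (Cgn) to 0.18 (Ocln), with a median of -0.11, beside -0.0036 for all genes tested.

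Levels of the members were ranked per kilobase of union exon length. In the control, the order was Cldn1 (59.4 ± 4.10 CPM per kilobase), F11r (45.6 ± 2.41), Cldn4 (43.3 ± 7.59), Tjp3 (18.8 ± 1.63), Tjp1 (13.9 ± 0.266), Cgn (8.06 ± 1.09), Ocln (7.77 ± 0.818) and Cgnl1 (4.23 ± 0.312). The neighbours F11r and Cldn4 overlapped between libraries, as did Cgn and Ocln, and the other neighbours did not. In the knockout the first 5 genes kept this order and no neighbours overlapped: Cgnl1 came sixth with 10.6 ± 1.10 CPM per kilobase, above Ocln (8.84 ± 0.453) and Cgn (6.91 ± 0.734). Per kilobase, paracingulin transcripts were thus the lowest of the 8 in the control and ranked above those of occludin and cingulin in the knockout. Union length counts every annotated exon of a gene. Which isoforms were expressed was not tested, so close ranks could differ with other lengths.

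**Figure D3:**
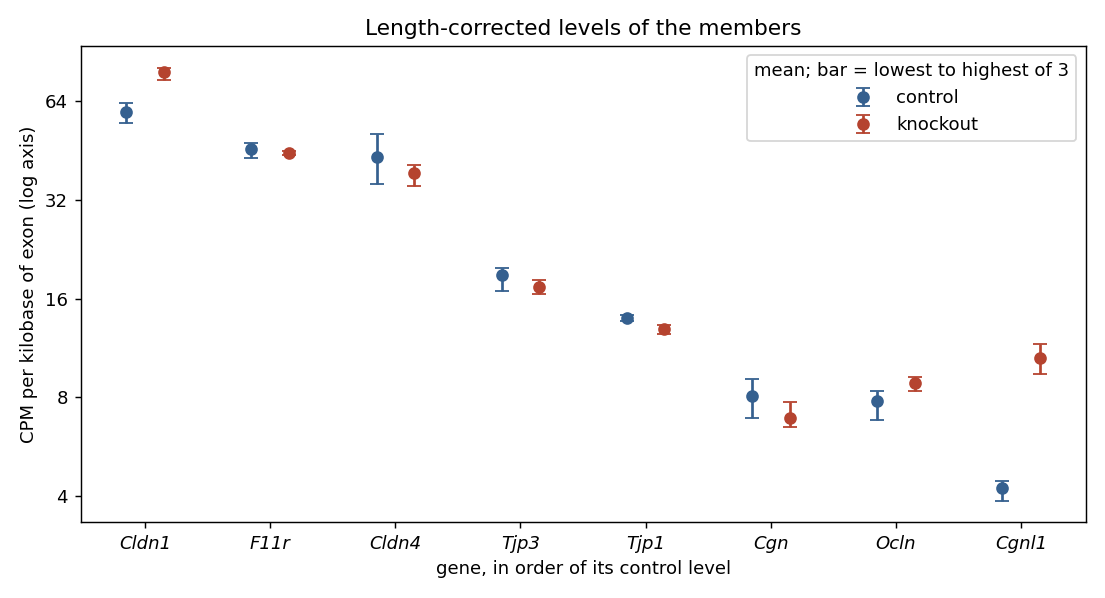
Length-corrected level of each member (CPM per kilobase of exon, log axis), with genes in the order of their control level; points are means and bars run from the lowest to the highest of 3 libraries. Cgnl1 is last in the control at 4.23 and sixth in the knockout at 10.6 CPM per kilobase.

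Beyond the members, a list of 82 other genes was written from general knowledge, of which 68 were in the table and 63 had enough counts to be tested. They are called other junction genes here, though 6 claudin-binding and protease genes and 5 barrier transcription factor genes are among them. Of these 63, 1 passed the threshold, Tspan33, which rose, and 0 passed as lower, a share of 1.59% beside 1.60% of all genes. The median log2 fold change of the 63 genes was 0.030, beside -0.0036 for all genes. At an unadjusted p under 0.05 there were 23 of 63, a larger share than the 2931 of all 15422 genes. The list was written with earlier results of these data known, so nothing is read from that. The groups did not overlap for 22 of 63 (34.9%), 13 above and 9 below, against 25.6% of all genes.

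Tspan33 encodes a tetraspanin that docks with the adherens junction protein complex of Plekha7 and Pdzd11, to which paracingulin also binds. It had 1.40, 1.50 and 1.75 CPM in DE679, DE685 and DE688, and 0.488, 0.526 and 0.436 CPM in DE680, DE684 and DE689, all from low counts (26 to 45 in the knockout and 11 to 12 in the control). The log2 fold change was 1.67 (SE 0.29, adjusted p 0.0389 in edgeR), higher in 3 of 3 knockout libraries. With any 1 library left out, Tspan33 missed the threshold, in 6 of 6 fits, with adjusted p from 0.0901 to 0.166 in edgeR. Its gene on chromosome 6 (29694222 to 29718559) ends 16.9 kb before Smo (29735503 to 29761365), which encodes the Hedgehog signal transducer Smoothened. Of the 8 other cingulin partners and GTPase regulators, including the exchange factor genes Arhgef2, Arhgef11 and Arhgef18, 0 passed. The log2 fold changes of these exchange factor genes were 0.34 for Arhgef2 (SE 0.09, adjusted p 0.117 in edgeR), -0.06 for Arhgef11 (SE 0.06, adjusted p 0.619) and 0.22 for Arhgef18 (SE 0.07, adjusted p 0.172). Plekha7, named after its values were seen, had a log2 fold change of 0.19 (SE 0.08, adjusted p 0.257 in edgeR), and Rhoa, the GTPase gene with the highest mean CPM of that group, -0.10 (SE 0.07, adjusted p 0.450 in edgeR).

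Of the 20 other claudin genes listed, 8 were in the table and 6 were tested, of which 0 passed. Cldn12, the one with the highest mean CPM, had a knockout mean of 27.6 ± 3.22 CPM and a control mean of 29.8 ± 1.60 CPM (SD over n = 3 libraries each), a log2 fold change of -0.11 (SE 0.10, adjusted p 0.595 in edgeR). The groups did not overlap for 3 of these 6, 2 above (Cldn8 and Cldn3) and 1 below (Cldn5), against 25.6% of all genes tested. Nothing is read from that count, and these 3 were singled out after their values were seen. Cldn8 had 14.97, 14.8 and 18.9 CPM in DE679, DE685 and DE688 and 8.56, 7.68 and 12.9 CPM in DE680, DE684 and DE689, with no overlap (log2 fold change 0.74, SE 0.21, adjusted p 0.127 in edgeR). Cldn3, whose gene lies 39.3 kb from Cldn4 on chromosome 5, was low, at 2.02 to 3.47 CPM in the knockout and 1.184 to 1.42 in the control (log2 fold change 1.01, SE 0.29, adjusted p 0.132 in edgeR). Cldn5, lower in the knockout, was lower still in level, at 0.466 to 0.635 CPM in the knockout and 0.932 to 1.23 in the control. Its log2 fold change was -0.87 (SE 0.31, adjusted p 0.199 in edgeR).

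The remaining groups held no gene past the threshold in the edgeR fit. Among 6 other membrane proteins tested, 5 had a log2 fold change above 0 with a median of 0.21; Cxadr, a virus receptor and junction adhesion protein with the highest mean CPM of them, had 0.29 (SE 0.06, adjusted p 0.0631 in edgeR), and part of its exons overlap Btg3 on the opposite strand. The 21 scaffold and polarity genes had a median of 0.035. Afdn, the afadin gene and the one with the highest mean CPM there, had 0.11 (SE 0.09, adjusted p 0.556 in edgeR). The 10 adherens junction genes had a median of 0.015, and Ctnnb1, the beta-catenin gene, had 757 ± 25.8 against 741 ± 39.8 CPM (SD over n = 3 libraries each). The 6 claudin-binding and protease genes had a median of 0.070. The 5 barrier transcription factor genes had a median of -0.12, and Klf4, needed for the skin barrier, had -0.32 (SE 0.09, adjusted p 0.119 in edgeR).

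The count of other junction genes depended on the test. With the pairs of consecutive tags as a block, edgeR called 6 of the 63, 5 higher and 1 lower, beside 704 genes called over the whole table (4.56%). The 5 added to Tspan33 were Cldn8 (adjusted p 0.0178 in edgeR with the block), Prkcz (0.0149), Epcam (0.0248) and Cxadr (0.0463), which were higher, and Klf4 (0.0346), which was lower. The DESeq2 Wald test called 8 of the 63, 5 higher and 3 lower, with 879 called over the whole table (5.70%). The 7 added to Tspan33, named after their values were seen, were Cldn8, Cxadr, Epcam and the atypical protein kinase gene Prkcz, which were higher, and Amotl2, Grhl1 and Klf4, which were lower. Of these, Grhl1 and Klf4 are barrier transcription factor genes. Prkcz had 5.47, 3.35 and 6.57 CPM in DE679, DE685 and DE688 against 1.91, 1.45 and 2.74 CPM in DE680, DE684 and DE689 (log2 fold change 1.34, SE 0.33, adjusted p 0.0973 in edgeR). Epcam, which encodes an adhesion protein that binds claudins, had 123 ± 10.7 against 89.6 ± 12.5 CPM (SD over n = 3 libraries each; log2 fold change 0.46, SE 0.11, adjusted p 0.0901 in edgeR).

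**Figure D4:**
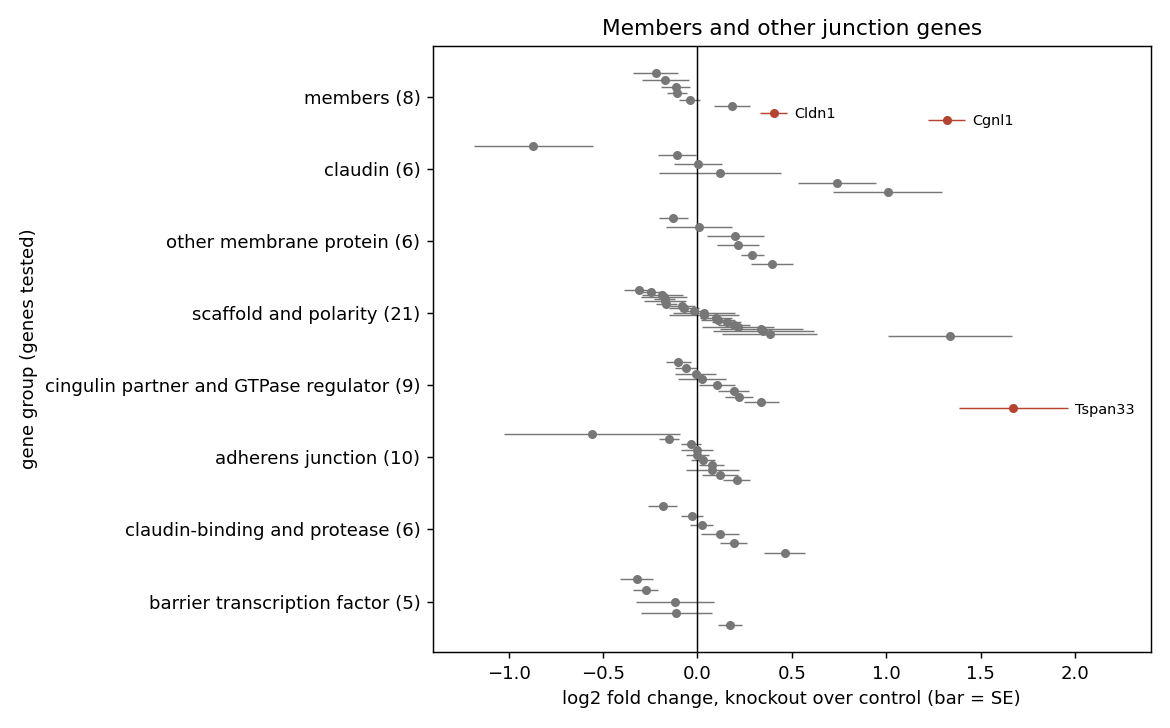
Log2 fold change of knockout over control (horizontal axis, bar is the SE) for the 8 members and the 63 other junction genes tested, grouped by role. Red points are past an adjusted p of 0.05 in the edgeR fit of all genes: Cgnl1 and Cldn1, whose choice used this comparison, and Tspan33.

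The libraries held the keratinocyte markers at high levels, with a mean of 14815 CPM in the knockout and 12799 in the control for the basal keratin gene Krt5. In bulk RNA, fewer cells of a type and less RNA per cell cannot be told apart. Summed hair follicle markers were 3914 to 4774 CPM in the knockout and 2902 to 3757 in the control, without overlap; 5 of 6 genes had a log2 fold change above 0, 0 of 6 passed the threshold and none was at 0. The 1 gene below 0, Cd34, had -0.29 (SE 0.22, adjusted p 0.504 in edgeR). Every knockout library lay above every control for 3 of the 6 (Krt17, Sox9 and Lrig1). Of all genes tested, 25.6% did not overlap in either direction. With the consecutive tags as a block, a fit added after the data were seen, 3 of 6 passed, beside 4.56% of all genes. All 3 were higher (Lgr5, Sox9 and Lrig1, adjusted p 0.0109 to 0.0298 in edgeR). Krt79, with the highest mean CPM of them, had a log2 fold change of 0.23 (SE 0.10, adjusted p 0.270 in edgeR). The part of these follicle markers in the Cgnl1 and Cldn1 levels was not tested.

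The summed markers of the layers above the basal one overlapped between the groups, and both sums were lower in the knockout library in 3 of 3 pairs of consecutive tags. Spinous markers summed to 17964 to 25137 CPM in the knockout and 20381 to 34232 in the control, with 5 of 5 genes below 0 on the log2 scale and 0 called. Granular markers summed to 2046 to 2401 CPM in the knockout and 2313 to 3265 in the control, with 5 of 7 genes below 0 and 0 called. Krt10, which made up most of the spinous sum, had a log2 fold change of -0.34 (SE 0.21, adjusted p 0.423 in edgeR) and Lor -0.29 (SE 0.10, adjusted p 0.196 in edgeR). Summed basal markers also overlapped, at 30475 to 34248 CPM in the knockout and 26528 to 31536 in the control, and were higher in the knockout library in 3 of 3 pairs. How often genes go 1 way in all 3 pairs was not worked out, so nothing is read from these counts of pairs. Single genes did not all overlap. Every knockout library lay below every control for 2 of 5 spinous genes (Krtdap and Dsc1) and 1 of 7 granular genes (Lor). Every knockout library lay above every control for 2 of 6 basal genes (Krt5 and Krt15). Of all genes tested, 25.6% did not overlap in either direction, so nothing is read from these counts. Of these 5 markers, named after their values were seen, 3 passed with the consecutive tags as a block. They were picked because their groups did not overlap, which favoured a call in the same contrast. Their count can therefore not be set against the 4.56% of all genes called in that fit. Krtdap and Dsc1 passed as lower and Krt15 as higher (adjusted p 0.0293 to 0.0382 in edgeR). The part of these layers in the levels of the members was not tested.

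Of the cell types other than keratinocytes, endothelial markers, which include Cldn5, were at low levels and did not overlap, with a knockout sum of 2.66 to 3.81 CPM against 3.85 to 7.02 CPM in the control; 0 of the 4 genes tested passed, and Pecam1 had a log2 fold change of -0.39 (SE 0.28, adjusted p 0.486 in edgeR). Fibroblast markers summed to 129 to 142 CPM in the knockout against 37.3 to 79.0 CPM in the control. That sum was mostly Dcn, the decorin gene, the 1 of 5 that passed (log2 fold change 1.90, SE 0.21, adjusted p 0.00782 in edgeR), and without Dcn the sums overlapped, at 14.8 to 18.7 against 12.4 to 38.4 CPM. Summed sebaceous, simple epithelial, melanocyte and immune markers overlapped, and 0 of their genes passed. Among single genes, knockout libraries lay above all controls for Mlana, Pmel and Krt18 and below them for Mgst1. Of all genes tested, 25.6% did not overlap in either direction. All 5 melanocyte genes and all 5 immune genes had a log2 fold change above 0, with medians of 0.54 and 0.58. The immune sum was mostly Cd74 and was higher in the knockout library in 3 of 3 pairs. No share over all genes was worked out for such a count of pairs, and nothing is read from it. Cd74 alone passed with the consecutive tags as a block (adjusted p 0.0438 in edgeR), a fit that called 4.56% of all genes. Without the block its adjusted p was 0.614 in edgeR (SE 0.49). Since Cd74 made up most of the immune sum, the sum and this call are not separate observations. Their genes with the highest mean CPM had log2 fold changes of -0.03 (Scd1), 0.02 (Krt7), 0.60 (Dct) and 0.50 (Cd74). No marker of these lists was at 0 in every library. The part of these cell types in the levels of the members was not tested.

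Across the 6 libraries, the 5 genes whose log2(CPM + 0.5) followed that of Cgnl1 most closely, among 13678 genes with a mean of at least 1 CPM, were Scnn1b, Ptch1, Smo, Tbc1d16 and Cxcr4, with Pearson r from 0.995 to 0.998. The libraries share the genotype contrast that chose Cgnl1, so any gene with a clear step between the groups has a high r, and the r is a description only. Ptch1 encodes the Hedgehog receptor, Smo the signal transducer that it restrains, Scnn1b an epithelial sodium channel subunit and Cxcr4 a chemokine receptor. Ptch1 had 95.4, 116 and 122 CPM in DE679, DE685 and DE688 and 31.0, 40.4 and 40.1 CPM in DE680, DE684 and DE689. Like Cgnl1, each of the 5 had its lowest knockout value in DE679 and its highest in DE688. Smo had a much smaller step, from 118 ± 0.696 CPM in the control to 159 ± 4.17 in the knockout (SD over n = 3 libraries each), so a high r says nothing of the size of the change. Among the members, Cldn1 had an r of 0.947 with Cgnl1 and Ocln 0.677, while Tjp1 had -0.937, Tjp3 -0.618, Cgn -0.557, Cldn4 -0.456 and F11r -0.435.

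**Figure D5:**
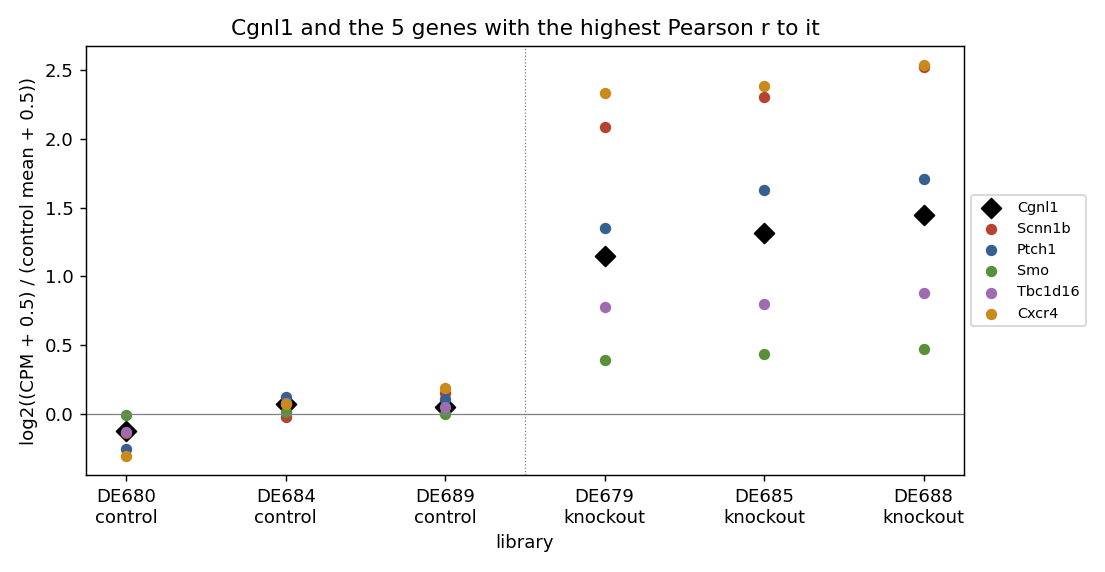
Cgnl1 (black diamonds) and the 5 genes with the highest Pearson r to it over 6 libraries, as log2 of (CPM + 0.5) over (control mean + 0.5); each column of points is a library. The 6 genes step up together between groups by different amounts, least for Smo and most for Scnn1b and Cxcr4.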

How the data were processed

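Poly(A) RNA of tail keratinocytes was made into stranded libraries, 3 labelled knockout and 3 labelled control, per the labels' protocols. The authors deposited estimated counts per gene (19618 genes, not all values whole) and a normalized signal per gene, which equals the estimated count times a constant for each library plus 0.001. Sorted alignments with duplicates marked are named per the file headers. The submitters' processing notes name bcl2fastq 2.20, cutadapt 1.18, STAR 2.7.0f, Partek and mm10, without roles; the counting tool, its use of strand and the annotation are not given in the sources used here. Besides gene length, given as a genomic span that was not used, 0 columns of per-sample values were left out.

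Estimated counts were rounded, filtered with the filterByExpr defaults of edgeR 4.0.16, scaled with TMM factors (0.975 to 1.03) and fitted with glmQLFit and glmQLFTest (genotype only, 6 libraries), with Benjamini-Hochberg adjustment over all 15422 genes. SE is the log2 fold change over the square root of F. The design foresaw raw counts, and its test was kept for the rounded values. Totals cover counting error only, as no molecular identifiers are mentioned. With 3 against 3 libraries an exact permutation test cannot go below 0.1. Within a group, every pair of libraries differed by more than counting error (chi-square over its degrees of freedom 14.3 to 48.6), so none was a copy.

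Exon lengths and overlaps came from GENCODE M21 (GRCm38, the build of mm10), and promoters from RefSeq (GRCm38.p6). Alternatives were other scaling factors, other filters, DESeq2 1.42.0, limma 3.58.1 (voom, and limma-trend on the log2-transformed normalized signal of the authors, 1 added) and each library left out. A fit with consecutive library tags as a block was added after the data were seen. Deviations from the group means (log2(CPM + 0.5), 15422 genes) correlated at 0.22 to 0.40 within the 3 pairs. Between a knockout and a control library of different pairs they correlated at -0.33 to -0.07. Deviations cancel within a group, so negative values outside the pairs follow in part from positive ones inside and are no separate evidence. The values within pairs are a hint from the data, and no label says that tags pair libraries. Named genes were the members, junction genes past the threshold, the gene with the highest mean CPM, not corrected for length, of each group and marker list, the 5 genes most like Cgnl1, Gpr161 and Gli1; 1 gene that this rule names is not reported here. Other genes were named after their values were seen. Members and lists were chosen with earlier results of these data known. Protein sequences were not used here.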

Additional observations from a re-analysis of the deposited data

How the results depend on the processing

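The number of genes called between knockout and control was 247, 192 of them higher (77.7%). Other scaling factors, other filters and both limma fits gave 229 to 254. DESeq2 gave 879 (64.7% higher), with 905 adjusted p-values as NA, and the cause was not tested. The edgeR fit with consecutive library tags as a replicate block, chosen after the data were seen, gave 704 (66.1% higher), 247 of them shared. Leaving out 1 library gave 69 (without DE688) to 121 (without DE684), from fits that each hold fewer libraries. Of these calls, 79.8% (without DE680) to 96.7% (without DE679) were higher, with 19 to 3 lower in place of 55. The cause was not tested. For the other junction genes the count of 1 (Tspan33) was 8 with DESeq2, 6 with the replicate block, 1 in the other fits of all 6 libraries and 0 in each of the 6 fits with a library left out. At an unadjusted p under 0.05, which is not the threshold for a call, there were 23 of 63 in the edgeR fit, a larger share than the 2931 of all 15422 genes. Of the 5 genes most like Cgnl1, 4 stayed with log2(CPM + 1) and 1 to 3 when a library was left out, 1 each without DE685, DE684 or DE689.

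The Cgnl1 log2 fold change ran from 1.24 to 1.40 over 14 alternatives and that of Cldn1 from 0.35 to 0.45, and no member changed sign in any of them. Without 1 library, the Cldn1 edgeR adjusted p was 0.0636 to 0.171. Tspan33 ran from 0.78, on the authors' values with 1 added, to 1.75. The columns carry no replicate numbers of the labels, so those numbers could not be used to pair libraries. The block of consecutive tags changed no call among the members. Depth limits the lowest genes, since 3 counts are 0.117 to 0.173 CPM.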
